A study of Mus musculus with 6 samples.

Results

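The promoters described here are those of long intergenic noncoding RNA (lincRNA) genes that lie apart from protein-coding promoters. They were taken from the GENCODE M21 annotation of the mouse genome GRCm38 as the genes of type lincRNA on chromosomes 1 to 19 whose every transcript start lay over 2 kb from every start of a protein-coding transcript. Of 5854 annotated lincRNA genes, 5209 lay on these chromosomes, 453 of them were within 2 kb of a coding start, and the remaining 4756 genes, with 6511 distinct starts, are the members. They are 4756 of the 51229 annotated genes of all types on the same chromosomes. A gene was counted as having an interval when an interval of the deposited list came within 1 kb of any of its starts.

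The data come from chromatin immunoprecipitation sequencing (ChIP-seq) of PGCLCs at day 2. PGCLCs, or primordial germ cell-like cells, are mouse cells made in culture that stand in for the founders of the germ line. The cells were of strain 129Sv/J and untreated. Chromatin was pulled down through the HA tag on Tex10 in 2 samples and through H3K4me3, the trimethylated form of lysine 4 in histone H3, in 2 others. A further 2 were input DNA, for which no file was used here. The labels do not say which construct or allele carries the tag, whether the line is 1 clone, or whether the replicates came from separate cultures. Each antibody has 1 deposited list of intervals without heights or scores, so no value has a replicate error, no samples could be compared by a test, and the depth is unknown. An HA pull-down from cells without the tag was not analysed here.

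A lincRNA is a transcript without a long open reading frame made from its own promoter, usually by RNA polymerase II and often spliced. As a class, lincRNAs are expressed at lower levels and in fewer tissues than messenger RNAs. H3K4me3 is deposited around the starts of active or poised genes, above all at CpG islands, which are stretches of DNA that have kept their CpG dinucleotides. Tex10 is a nuclear protein known from a complex that acts in ribosome assembly and from work on enhancers of embryonic stem cells.

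The labelled cell type was checked on protein-coding marker genes by their H3K4me3. Of 10 germ cell genes, 6 carried the mark, and Nanos3, Dppa3, Ddx4 and Dazl did not. All 8 pluripotency genes, 6 of 6 mesoderm genes, 4 of 5 endoderm genes and 4 of 4 neural genes also carried it, so H3K4me3 at these genes does not separate the cell types. The mark was absent from 6 of 6 genes of unrelated tissues. The lists held 4331 HA-Tex10 and 29072 H3K4me3 intervals over the whole genome.

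Sequences of 12 HA-Tex10 intervals at lincRNA promoters are printed to show how unlike one another they are. They were read from GRCm38 on the strand of the lincRNA gene, 5′ to 3′, and were chosen after their values were seen. Capitals mark matches, on either strand, to 9 short consensus sequences. The TATA box was searched as TATAAA and the CCAAT box by the letters of its name. The GC box of SP factors was searched as GGGCGG, the E-box as CACGTG, and the CREB sequence as TGACGTCA. The ETS sequence was searched as CCGGAAGT and the octamer of POU factors as ATGCAAAT. The NRF1 palindrome and a palindrome like that of ZBTB33 were searched too, and none of the printed sequences held either. The first 4 intervals lie at known lincRNAs, namely Malat1 (chr19:5802323-5802577, minus strand), Neat1 (chr19:5845722-5845807, minus), Snhg6 (chr1:9943788-9944038, minus) and Lockd (central 300 bp, chr6:134928680-134928979, plus).
Malat1: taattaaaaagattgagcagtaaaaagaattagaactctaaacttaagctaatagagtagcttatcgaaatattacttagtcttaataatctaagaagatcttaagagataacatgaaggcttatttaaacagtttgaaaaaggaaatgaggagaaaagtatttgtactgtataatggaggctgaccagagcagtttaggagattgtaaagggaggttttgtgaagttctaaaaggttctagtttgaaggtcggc
Neat1: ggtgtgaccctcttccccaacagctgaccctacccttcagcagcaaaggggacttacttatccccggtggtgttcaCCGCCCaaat
Snhg6: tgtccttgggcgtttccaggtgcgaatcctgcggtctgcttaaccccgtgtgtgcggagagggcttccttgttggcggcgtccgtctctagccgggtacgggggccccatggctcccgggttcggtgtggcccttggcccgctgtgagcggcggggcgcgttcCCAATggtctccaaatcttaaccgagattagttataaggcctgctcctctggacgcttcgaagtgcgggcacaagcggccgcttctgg
Lockd: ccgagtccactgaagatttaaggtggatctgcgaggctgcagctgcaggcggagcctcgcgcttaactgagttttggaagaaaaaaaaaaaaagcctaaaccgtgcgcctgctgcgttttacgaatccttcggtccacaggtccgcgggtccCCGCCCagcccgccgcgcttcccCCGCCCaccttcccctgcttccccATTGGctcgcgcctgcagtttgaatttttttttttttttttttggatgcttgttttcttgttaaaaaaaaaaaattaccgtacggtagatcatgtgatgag
The Malat1 interval held none of the 9 sequences, Neat1 held 1 GC box, and Snhg6 held 1 CCAAT box. The printed part of the Lockd interval held 2 GC boxes and 1 CCAAT box.

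The next 4 intervals, at 4932412D23Rik (chr16:42875375-42875606, minus strand), 1700096K18Rik (chr5:25529592-25529751, plus), Tmem250-ps (chr2:26140441-26140579, minus) and 1810044D09Rik (chr6:91440756-91441015, plus), are shown because they hold several of the sequences or the CREB sequence.
4932412D23Rik: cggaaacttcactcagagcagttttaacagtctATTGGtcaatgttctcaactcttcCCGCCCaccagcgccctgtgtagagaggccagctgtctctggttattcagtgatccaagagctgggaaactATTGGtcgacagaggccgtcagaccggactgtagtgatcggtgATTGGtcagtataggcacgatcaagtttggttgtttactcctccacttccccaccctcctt
1700096K18Rik: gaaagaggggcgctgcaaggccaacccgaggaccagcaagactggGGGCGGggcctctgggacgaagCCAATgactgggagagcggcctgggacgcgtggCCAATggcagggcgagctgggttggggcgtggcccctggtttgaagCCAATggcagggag
Tmem250-ps: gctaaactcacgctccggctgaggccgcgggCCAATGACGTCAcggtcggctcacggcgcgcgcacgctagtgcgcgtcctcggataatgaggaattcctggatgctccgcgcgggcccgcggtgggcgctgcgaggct
1810044D09Rik: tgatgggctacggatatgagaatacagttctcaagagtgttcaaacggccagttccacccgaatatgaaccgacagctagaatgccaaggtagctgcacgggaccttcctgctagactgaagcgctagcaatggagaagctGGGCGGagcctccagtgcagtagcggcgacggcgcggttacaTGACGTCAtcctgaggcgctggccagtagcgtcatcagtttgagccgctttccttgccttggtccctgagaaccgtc
There were 3 CCAAT boxes and 1 GC box at each of 4932412D23Rik and 1700096K18Rik. Tmem250-ps held 1 CREB sequence that shares bases with a CCAAT box, and 1810044D09Rik held 1 CREB sequence and 1 GC box.

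The last 4 are intervals of other kinds: beside an snRNA gene in D230017M19Rik (central 300 bp, chr1:72243896-72244195, plus strand), over the start of the 7SK RNA gene Rn7sk at C920006O11Rik (central 300 bp, chr9:78175618-78175917, plus), at a start without H3K4me3 in E130018N17Rik (chr2:168154478-168154638, minus), and in a tandem repeat at Gm42916 (chr5:106368540-106368742, plus).
D230017M19Rik: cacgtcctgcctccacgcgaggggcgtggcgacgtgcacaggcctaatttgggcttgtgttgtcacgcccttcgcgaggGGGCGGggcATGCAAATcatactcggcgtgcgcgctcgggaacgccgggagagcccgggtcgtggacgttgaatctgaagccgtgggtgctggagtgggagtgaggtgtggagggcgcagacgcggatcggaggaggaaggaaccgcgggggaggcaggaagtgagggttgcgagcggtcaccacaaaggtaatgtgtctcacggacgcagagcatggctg
C920006O11Rik: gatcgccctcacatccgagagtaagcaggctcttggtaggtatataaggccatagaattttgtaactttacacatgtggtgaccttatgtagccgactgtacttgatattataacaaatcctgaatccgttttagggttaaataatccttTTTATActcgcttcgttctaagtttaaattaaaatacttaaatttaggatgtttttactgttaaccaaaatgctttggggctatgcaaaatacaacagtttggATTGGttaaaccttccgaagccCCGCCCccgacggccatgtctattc
E130018N17Rik: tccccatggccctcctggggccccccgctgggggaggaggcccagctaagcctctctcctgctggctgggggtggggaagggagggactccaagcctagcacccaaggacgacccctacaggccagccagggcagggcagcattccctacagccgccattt
Gm42916: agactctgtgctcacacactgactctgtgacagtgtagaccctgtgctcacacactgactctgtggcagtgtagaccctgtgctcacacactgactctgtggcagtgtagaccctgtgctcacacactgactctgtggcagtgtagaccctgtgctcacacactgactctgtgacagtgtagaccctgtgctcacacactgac
The D230017M19Rik sequence held 1 octamer and 1 GC box and ended before the start of the snRNA gene Gm24497 at position 72244213. The printed part of the C920006O11Rik interval held 1 TATA box, 1 CCAAT box and 1 GC box, while E130018N17Rik and Gm42916 held none of the 9. The Gm42916 interval repeated with a period of 36 bases at 98.2% identity.

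Few lincRNA promoters carried either signal. H3K4me3 was found at 401 of the 4756 genes (8.43%, Wilson 95% interval 7.67 to 9.26%) and HA-Tex10 at 57 (1.2%, 0.926 to 1.55%), and 4344 genes (91.3%) had neither. The intervals given with shares cover the counting of genes only and treat neighbouring genes as independent. For comparison, H3K4me3 was found at 62.6% and HA-Tex10 at 9.13% of 20722 protein-coding genes, and at 33.0% and 4.9% of all annotated genes. The lincRNA shares were below both, and their 95% intervals did not overlap those of the other groups.

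Of the 401 lincRNA genes with H3K4me3, 46 had HA-Tex10 (11.5%, 8.71 to 15%), against 14.3% (13.7 to 14.9%) of marked protein-coding genes and 14.1% of all marked genes. These 95% intervals overlapped, so a lower share at marked lincRNA promoters was not detectable at this number of genes. When intervals had to cover a start, the share was 5.12% (13 of 254, 3.02 to 8.56%) for lincRNA and 7.01% (6.55 to 7.49%) for protein-coding genes. Without H3K4me3, HA-Tex10 was found at 11 of 4355 lincRNA genes (0.253%, 0.141 to 0.452%), against 0.477% (0.346 to 0.657%) of protein-coding genes and 0.361% of all annotated genes. H3K4me3 was thus present at 46 of the 57 lincRNA genes with HA-Tex10 (80.7%, 68.7 to 88.9%), a share below the 98.0% (97.3 to 98.6%) of protein-coding genes. This share depends on how many genes lack H3K4me3, which was 4355 of 4756 lincRNA genes and 7756 of 20722 protein-coding genes. At unmarked genes the HA-Tex10 share was not higher for lincRNA genes, as given above. In 42 of the 46 genes with both, an HA-Tex10 interval shared at least 1 bp with an H3K4me3 interval. The exceptions were Neat1, Gm6410, Gm26863 and 5033428I22Rik.

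**Figure D1:**
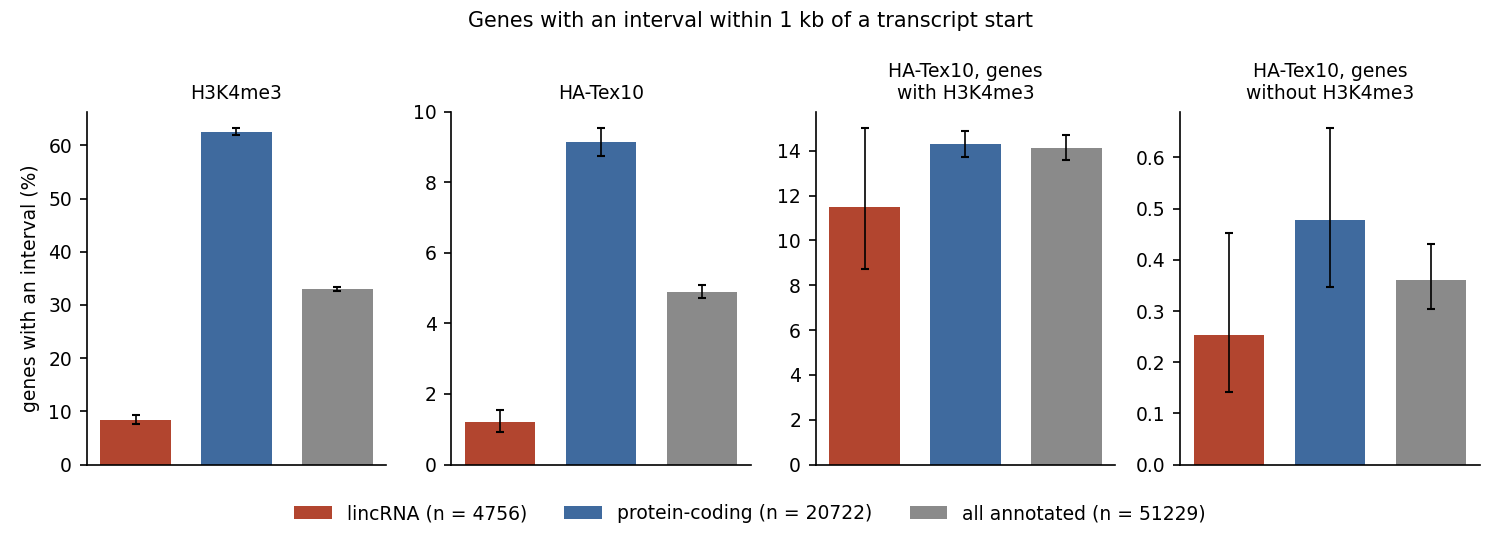
Share of genes with an interval within 1 kb of a transcript start (%, vertical axes with a scale of their own), for lincRNA, protein-coding and all annotated genes; error bars are Wilson 95% intervals, and the last 2 panels use only the genes with or without H3K4me3. The lincRNA bars are low for each mark (8.43% and 1.2%), but at marked genes the HA-Tex10 share of 11.5% has an interval that overlaps that of protein-coding genes.

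Other noncoding types under the same distance rule had shares near, below or above those of lincRNA genes. H3K4me3 was found at 8.64% of 1805 antisense genes and 3.72% of 2850 genes of type TEC (transcripts still to be tested experimentally), and HA-Tex10 at 0.776% and 0.351%. The TEC 95% intervals (3.08 to 4.48% and 0.191 to 0.645%) lay below those of lincRNA genes. At marked genes HA-Tex10 was found at 7.05% of antisense, 4.72% of TEC and 8.33% of processed transcript genes. Their 95% intervals overlapped that of the 11.5% at marked lincRNA genes. Genes of type processed transcript, a class that holds many host genes of small RNAs, stood higher for H3K4me3, with 25.8% of 419 (21.8 to 30.2%). Their HA-Tex10 share was 2.15% (9 genes, 1.13 to 4.03%), and its 95% interval overlapped that of lincRNA genes.

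LincRNA genes nearer to coding starts carried H3K4me3 more often. Just outside the distance limit, at 1 to 2 kb from a coding start, 29 of 84 lincRNA genes had H3K4me3 (34.5%) and 4 had HA-Tex10, and just inside it, at 2 to 3 kb, 15 of 81 (18.5%) and 1. From there the H3K4me3 share was 16.0% at 3 to 5 kb, 14.7% at 5 to 10 kb, 11.5% at 10 to 50 kb, 7.62% at 50 to 200 kb and 2.36% beyond 200 kb. The share of marked genes with HA-Tex10 did not follow this order: it was 12.4% (8.22 to 18.1%) at 10 to 50 kb, 9.3% (5.4 to 15.6%) at 50 to 200 kb and 19.2% (8.51 to 37.9%) beyond 200 kb, where it rests on 5 of 26 genes. The median distance to the nearest coding start was 69.5 kb for all members, 32.9 kb for those with H3K4me3 and 30.1 kb for those with HA-Tex10.

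H3K4me3 was also more frequent at CpG-richer promoters. CpG content was read as the CpG observed/expected ratio, from 250 bases before to 50 after the 5′-most start. The ratio is 1 when CpG is as frequent as the C and G content predicts. H3K4me3 was found at 3.38% of lincRNA promoters with a ratio under 0.2, at 6.63% from 0.2 to 0.4, at 14.4% from 0.4 to 0.6 and at 43.5% (38.0 to 49.2%) of the 301 promoters at 0.6 or above. Protein-coding genes of the same classes were marked at 12.9%, 34.8%, 71.6% and 94.9%, so lincRNA genes were marked less often in each class. The ratio was read at the 5′-most start only, whereas the mark was counted at any start of the gene. Protein-coding genes have more starts, 52092 for 20722 genes against 6511 for the 4756 members. The classes are thus not matched for the length searched. HA-Tex10 at marked lincRNA genes was most frequent in the top class, at 25 of 131 (19.1%, 13.3 to 26.7%), against 15.8% of marked protein-coding genes of that class. In the lower classes, in rising order, it was 6.67%, 8.33% and 8.05%, with 95% intervals that overlapped that of the top class. Median CpG ratios were 0.632 at lincRNA promoters with both, 0.422 with H3K4me3 only, 0.215 with HA-Tex10 only and 0.203 with neither, and the median GC content was 53.8%, 52.7%, 49.7% and 46.7%.

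**Figure D2:**
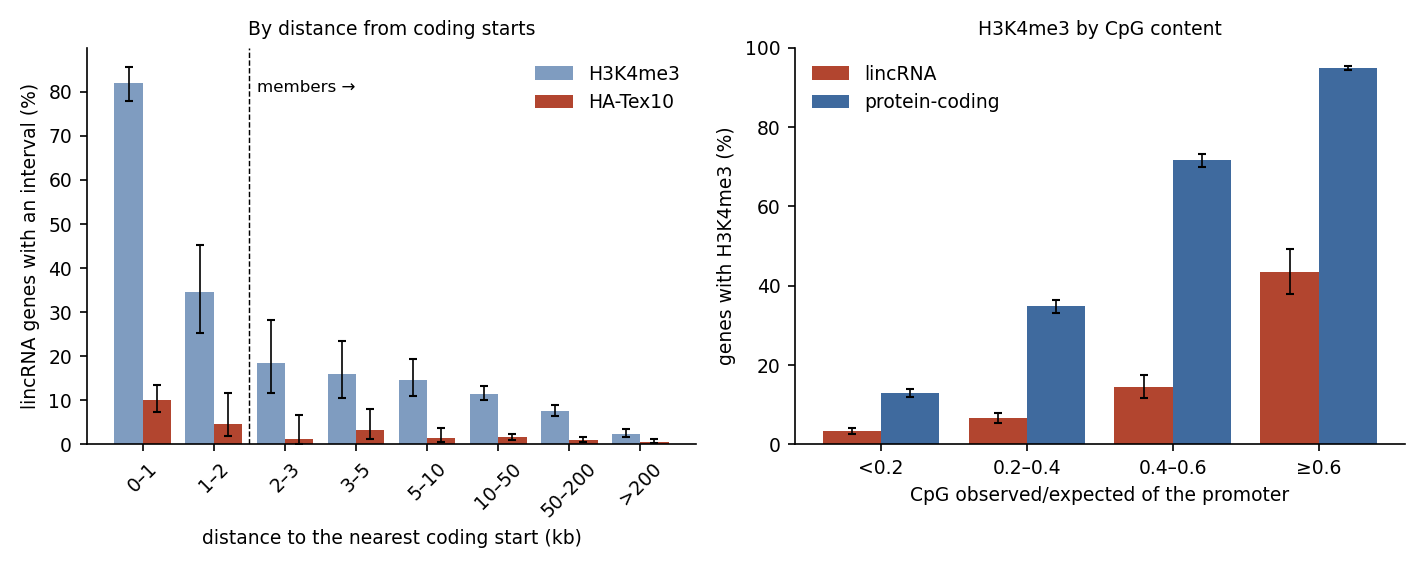
Left, share of lincRNA genes with H3K4me3 or HA-Tex10 by distance to the nearest coding start (kb), with the members right of the dashed line; right, share of genes with H3K4me3 by promoter CpG observed/expected ratio for lincRNA and protein-coding genes. Error bars are Wilson 95% intervals; the H3K4me3 share goes from 18.5% at 2 to 3 kb to 2.36% beyond 200 kb, and from 3.38% to 43.5% across CpG classes.

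Motif content differed between the same groups, which also differ in base composition. The GC box was found in 47.8% of the 46 promoters with both (34.1 to 61.9%), 30.4% of the 355 with H3K4me3 only, 6.01% of the 4344 with neither, and 8.24% of all members. Of protein-coding promoters of the same length, 63.3% of those with H3K4me3 and 44.5% of all held it. The TATA box went the other way, with 10.9% (4.73 to 23%) at promoters with both, 8.73% with H3K4me3 only and 18% with neither, against 6.79% of marked and 12.7% of all protein-coding promoters. The CCAAT box differed little, at 43.5% with both, 39.4% with H3K4me3 only and 37.5% with neither, against 38.4% of marked and 38.6% of all protein-coding promoters. In a window of 200 bp around the centre of each of the 62 distinct HA-Tex10 intervals at lincRNA genes, which reaches beyond the interval in the 21 narrower than that, the GC box was found in 19 (30.6%, 20.6 to 43%) and the CCAAT box in 16 (25.8%), against 45% and 22.0% of 1771 intervals at protein-coding starts. The TATA sequence was found in 6 (9.68%, 4.51 to 19.5%), against 2.6% at protein-coding starts, and the CREB sequence in 2 and the octamer in 2. A match is a description of the letters and not a bound site.

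Annotation depth went with the mark. H3K4me3 was found at 6.98% of the members with 1 transcript, 11.3% of those with 2 and 17.3% of those with 3 or more, which also have more windows. With the 5′-most start alone, 8.01% of lincRNA genes had H3K4me3 and 1.14% HA-Tex10. Genes known only by a Gm number were marked at 7.13%, those with a Rik clone name at 9.9% and those with another name at 14.3%. The HA-Tex10 share at marked genes was 11.4%, 13% and 9.72% in these name classes, with overlapping 95% intervals.

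H3K4me3 intervals at lincRNA promoters were narrower than at protein-coding ones. The widest interval per marked lincRNA gene had a median of 839 bp (interquartile range 405 to 1537 bp, highest 9150 bp), against 1360 bp (879 to 1981 bp) at protein-coding genes. At lincRNA genes that also had HA-Tex10 the median was 1524 bp, and without it 771 bp. The same pair was 1756 and 1294 bp at protein-coding genes. HA-Tex10 was found at 5 of 119 lincRNA genes with H3K4me3 under 500 bp (4.2%), at 9.35% from 500 to 1000 bp, at 11.2% from 1 to 2 kb and at 18 of 59 from 2 kb (30.5%, 20.3 to 43.1%). The protein-coding shares were 4.61%, 7.67%, 14.6% and 23.5%, each inside the lincRNA 95% interval. Gm26917, Gm42418 and AY036118 are among the 18 genes of the widest lincRNA class and share a single HA-Tex10 and a single H3K4me3 interval. That locus is counted once for each gene in the class, in its 95% interval and in the median of 1524 bp.

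**Figure D3:**
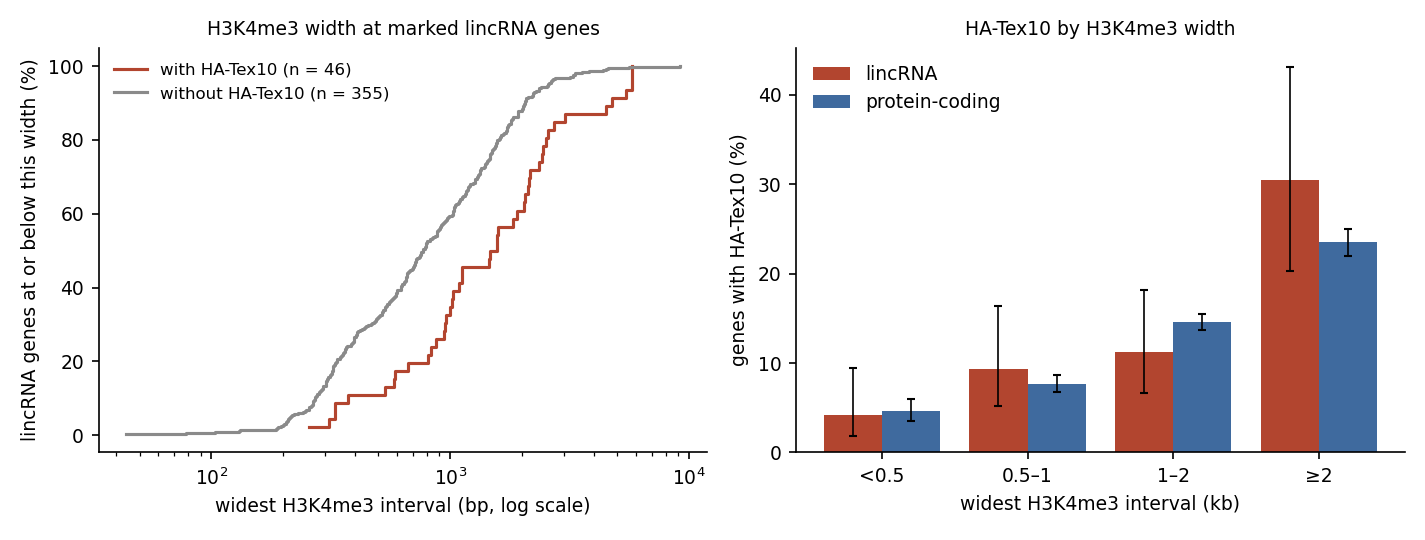
Left, cumulative share of the 401 marked lincRNA genes by the width of their widest H3K4me3 interval (bp, log axis), with and without HA-Tex10; right, share of marked genes with HA-Tex10 by H3K4me3 width (kb) for lincRNA and protein-coding genes, with Wilson 95% intervals. The curve of the 46 genes with HA-Tex10 lies to the right (median 1524 against 771 bp), and the share is 4.2% in the narrowest and 30.5% in the widest class. The widest class and the curve count a single locus, at the ribosomal RNA gene, for each of 3 lincRNA genes.

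The position of the 2 signals differed from that at coding genes as well. H3K4me3 intervals covered the start in 53.6% of the gene and interval pairs of lincRNA genes, against 74.4% at protein-coding genes, and HA-Tex10 intervals in 18 of 67 pairs (26.9%), against 40.4%. Around the 5′-most start of marked genes, H3K4me3 covered most lincRNA genes at 150 bp into the gene (66.4%) and most protein-coding genes at 250 bp (89.6%). HA-Tex10 rose towards lincRNA starts, from 0.262% at 1500 bp upstream to between 2.36% and 3.94% from 350 bp upstream to 450 bp into the gene, and was 1.05% at 2000 bp. The highest value, 3.94%, lay at 200 bp into the gene, whereas at protein-coding genes it was highest at the start, with 5.24%. The lincRNA peak is 15 of 381 genes, so its exact place is not well determined. Gm26917, Gm42418 and AY036118 share a single HA-Tex10 interval of 5776 bp, which the profile counts once for each gene. Part of the lincRNA values at the peak and far from the start therefore rests on that 1 interval, and 0.262% is 1 gene. The centre of HA-Tex10 lay within 250 bp of the nearest start in 41.8% of pairs, against 66.3% at protein-coding genes. For this share and for covered starts, each interval was placed by the nearest start of its gene. Protein-coding genes have more starts, so these shares are not matched for the number of starts. By the annotation of the lincRNA gene itself, the centre fell in an exon in 19 pairs (28.4%), in an intron in 17 (25.4%) and outside the gene in 31 (46.3%).

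**Figure D4:**
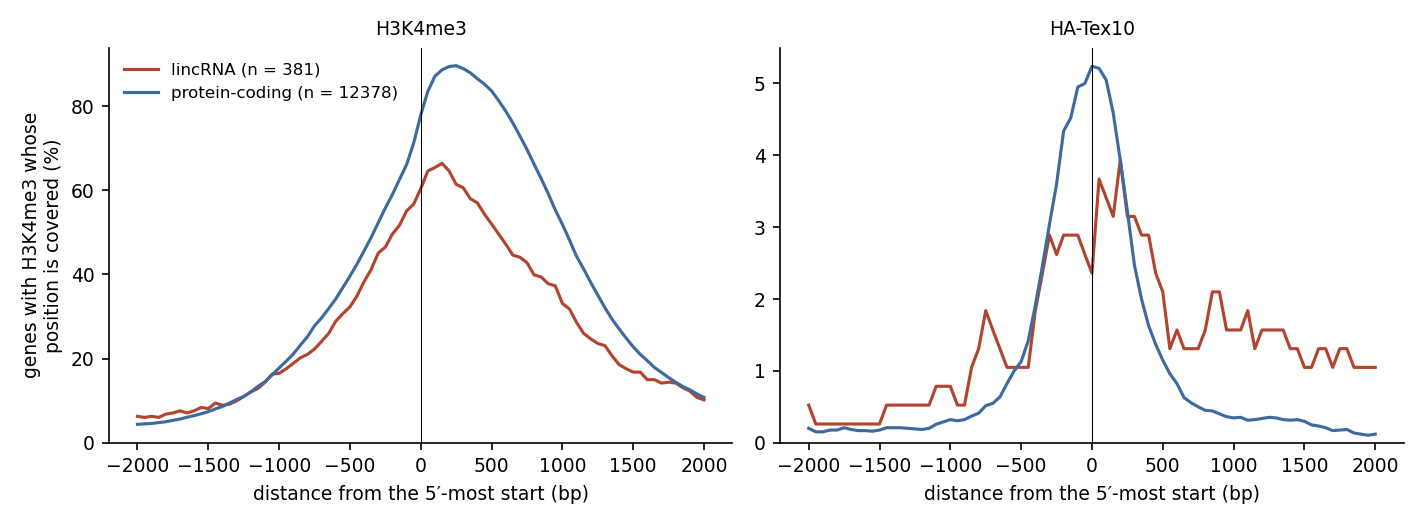
Share of marked genes whose position is covered by an H3K4me3 (left) or HA-Tex10 (right) interval, by distance from the 5′-most start (bp, positive into the gene), for 381 lincRNA and 12378 protein-coding genes with H3K4me3 there. H3K4me3 reaches 66.4% and 89.6%, and HA-Tex10 has a peak at the start at protein-coding genes (5.24%). At lincRNA genes HA-Tex10 has a broader rise, from 0.262% at 1500 bp upstream to at most 3.94%. The lincRNA curve counts 1 interval of 5776 bp at the ribosomal RNA locus for each of 3 genes.

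The 57 lincRNA genes with HA-Tex10 had 62 distinct intervals with a median width of 227.5 bp, and 4 of the intervals were shared by 9 genes. The shared intervals lie where lincRNA genes start close to each other, as at Gm14235 with E130018N17Rik, 4930401G09Rik with Gm13832, and Gm26656 with Gm44066. These genes are therefore not independent. The genes lay on 16 of the 19 chromosomes, with none among 246 members on chromosome 3, 300 on chromosome 7 and 370 on chromosome 10. The Wilson 95% intervals of these counts of 0 reach 1.54%, 1.26% and 1.03%. Chromosome 8 held 9 of the 57 (15.8%) but 6.79% of the members. On it 6 of 20 marked lincRNA genes had HA-Tex10 (30.0%, 14.5 to 51.9%), and 41.2% of marked protein-coding genes. Without chromosome 8 the shares of marked genes were 10.5% for lincRNA and 12.7% for protein-coding genes.

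**Figure D5:**
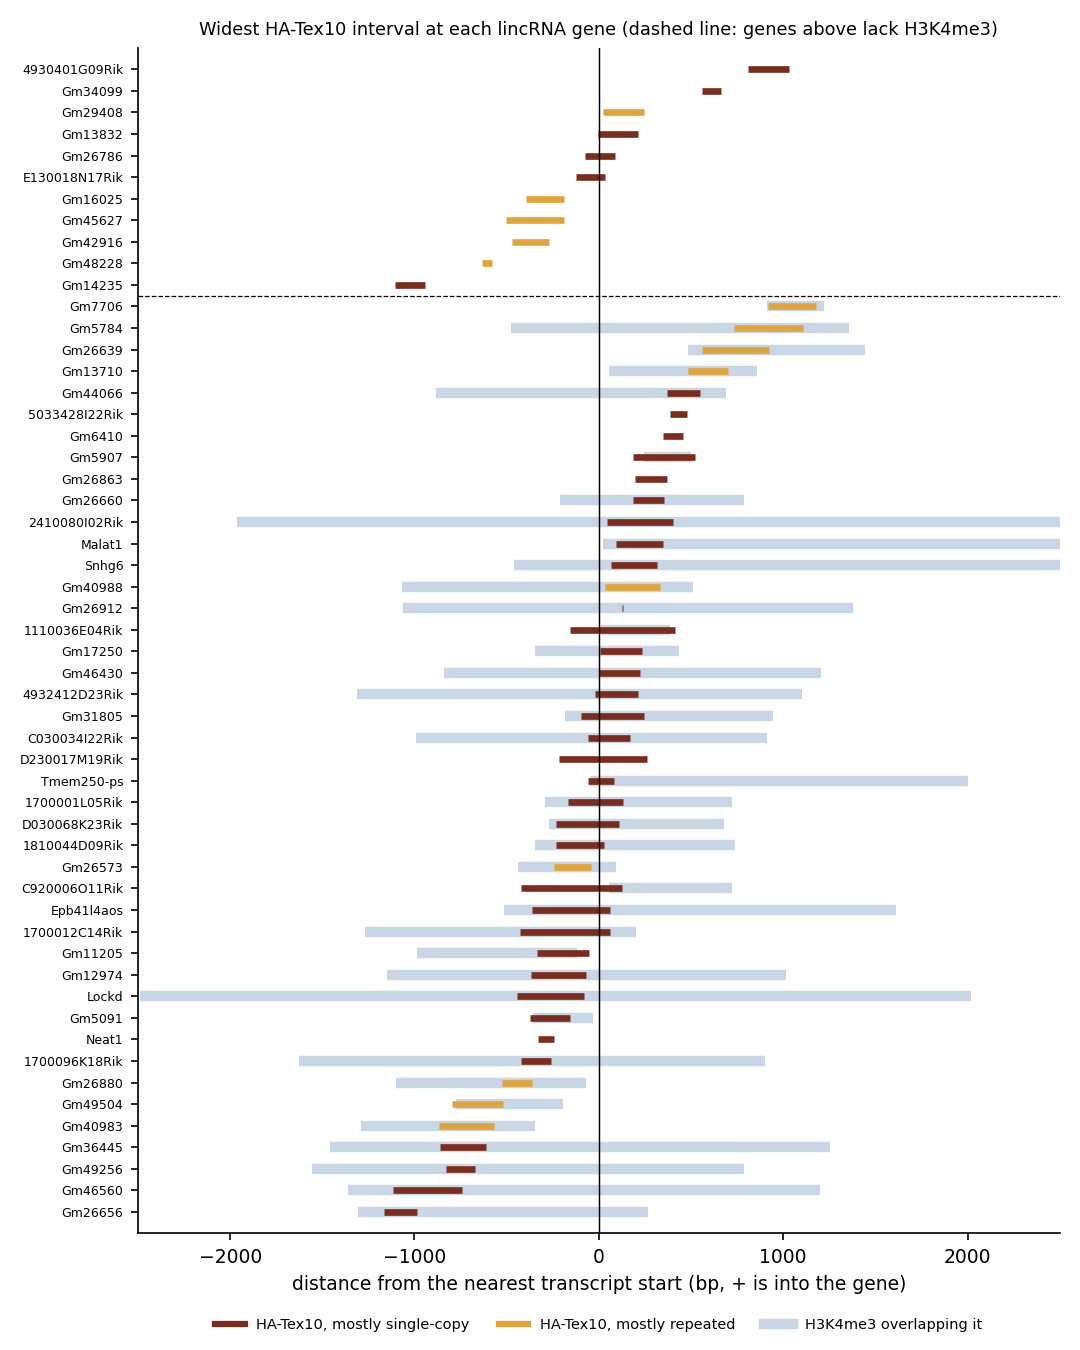
Widest HA-Tex10 interval at 54 lincRNA genes, drawn by distance from the nearest transcript start (bp, positive into the gene) with any H3K4me3 interval that overlaps it, cut at 2500 bp; the 3 genes at the ribosomal RNA locus are left out. The intervals are spread on both sides of the start, and the 11 genes above the dashed line have no H3K4me3 within 1 kb.

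A larger share of well-known lincRNAs than of the class carried H3K4me3. Across 5 lists of lincRNAs with known names, 45 genes were members. Of these, 31 had H3K4me3 (68.9%, against 8.43% of all members) and 4 had HA-Tex10 (8.89%, against 1.2%). All 4 were among the 31 marked genes, and 4 of 31 stands beside 46 of 401 (11.5%) for all marked members. A higher HA-Tex10 share at marked genes of the lists is therefore not shown. The lists were drawn up with earlier results of these data known, and of their 125 symbols 50 belonged to another gene type in the annotation, 21 were not matched and 9 fell outside the distance or chromosome limit.

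Among broadly expressed or nuclear lincRNAs, 8 of 9 had H3K4me3 and 3 had HA-Tex10. Malat1, an abundant nuclear RNA of speckles, had H3K4me3 over 5470 bp and 3 HA-Tex10 intervals of 255, 9 and 9 bp. The 255 bp interval began 94 bp into the gene from a start and was AT-rich, with 31.8% GC. Neat1, the scaffold of paraspeckles, had H3K4me3 over 2145 bp and an HA-Tex10 interval of 86 bp that lay 244 bp upstream of a start and outside the H3K4me3. Epb41l4aos, on chromosome 18 and host of a snoRNA, had H3K4me3 over 2125 bp and an HA-Tex10 interval of 419 bp across a start. The others with H3K4me3 but no HA-Tex10 were Pvt1 (3284 bp), the neighbour of Myc, then Mir17hg (2045 bp), Trp53cor1 (1620 bp), 2900097C17Rik (1382 bp) and Lncpint (1097 bp). Miat had neither.

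Of the hosts of small RNAs, 9 of 10 had H3K4me3 and 1 had HA-Tex10. That was Snhg6, a snoRNA host, with 3016 bp of H3K4me3 and a 251 bp HA-Tex10 interval 65 bp into the gene. Mir670hg had 2225 bp of H3K4me3, Mir17hg, the host of the miR-17 cluster, 2045 bp, Snhg12 1760 bp, Snhg20 1427 bp, Mir124-2hg 1098 bp, Mir124a-1hg 969 bp, Mir155hg 621 bp and Mir9-3hg 283 bp. Mir142hg, a gene of blood cells, had neither signal.

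Of 19 lincRNAs known from pluripotent cells, 12 had H3K4me3 and none had HA-Tex10. Platr10 (4604 bp) and Lncenc1 (3571 bp) had the widest H3K4me3, followed by Platr22 (1819 bp), Platr4 (1468 bp), Platr19 (1416 bp) and Platr27 (1042 bp). Platr30, Platr7, Platr11, Platr2, Platr1 and Platr26 had 789 to 215 bp. The unmarked genes were Platr3, Platr5, Platr6, Platr13, Platr15, Platr28 and Platr29. The 12 marked genes are too few to tell a count of 0 from the 11.5% of all marked members.

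Of 6 developmental lincRNAs, 4 had H3K4me3 and none HA-Tex10. Halr1 had 2563 bp, Bvht 1830 bp, Meg3 1122 bp and Mir124-2hg 1098 bp, while Hotair, in the Hoxc cluster, and Rmst had no interval. Of 4 imprinted members, Meg3 alone was marked, and H19, Mirg and B830012L14Rik had no interval of either kind.

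The 10 lincRNA genes with the widest H3K4me3 included 6 with HA-Tex10. 4932422M17Rik led with 9150 bp (chr5:123134856-123144005), in an interval that also came within 1 kb of a coding start, and lay 3262 bp from a start of Setd1b. The genes Gm26917, Gm42418 and AY036118 shared 5768 bp on chromosome 17. Rncr4 followed with 5609 bp (chr6:30171396-30177004), Malat1 with 5470 bp, 2410080I02Rik with 4776 bp, Platr10 with 4604 bp, and Lockd and Gm44238 with a shared 4511 bp. Lockd, which is transcribed downstream of the cell cycle inhibitor gene Cdkn1b, had an HA-Tex10 interval of 368 bp that ended 79 bp before a start. 2410080I02Rik, whose nearest coding start is that of Klf9, had 2 intervals of 359 and 301 bp.

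The 10 genes with the widest HA-Tex10 interval began with a single interval of 5776 bp (chr17:39843025-39848800). It covered 1 of the 2 starts of Gm26917 and the starts of Gm42418 and AY036118, and shared 2448 bp with the ribosomal RNA gene CT010467.1. Of its 32-base words, 14.6% occur more than once on the assembled chromosomes. Copies of the ribosomal RNA unit outside that assembly would not be counted, so this value does not show that the locus is single-copy. The setting without mostly repeated intervals keeps this interval. Without these 3 genes, 43 of 398 marked lincRNA genes had HA-Tex10 (10.8%). Next came 1110036E04Rik with 575 bp (chr9:64049670-64050244) across a start, overlapping an H3K4me3 interval of 374 bp. C920006O11Rik had 549 bp across its start and across the start of Rn7sk, which lies on the opposite strand and encodes 7SK, the RNA that holds the elongation factor P-TEFb. 1700012C14Rik had 487 and 345 bp, Epb41l4aos 419 bp, Gm5784 374 bp and Gm46560 371 bp.

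D230017M19Rik had 4 HA-Tex10 intervals, of 477, 211, 71 and 29 bp, at 2 groups of starts. The 477 bp interval covered a start of the lincRNA and the start of the snRNA gene Gm24497, and the 211 bp interval covered the start of the snRNA gene Gm23472. A start of a small RNA gene lay within 1 kb of a start of 6 of the 57 genes with HA-Tex10 (10.5%), of 5.49% of those with H3K4me3 and of 1.37% of all members. HA-Tex10 intervals overlapped a small or ribosomal RNA gene at 5 of the 57, and a tRNA gene at 0. Among these 5, Gm26917, Gm42418 and AY036118 share a single interval over CT010467.1. The same share for other genes is not given here, so these counts have no comparison. Which of the overlapping genes an interval belongs to cannot be told apart.

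HA-Tex10 without H3K4me3 was found at 11 genes, and none of their intervals met an H3K4me3 interval. The widest were at Gm45627 (312 bp, chr8:34659560-34659871), Gm29408 (223 bp, with a second of 82 bp), 4930401G09Rik and Gm13832 (a shared 219 bp, chr5:115359094-115359312) and Gm16025 (211 bp). Those at Gm45627, Gm29408 and Gm16025 were wholly repeated: each of their 32-base words occurs more than once in the genome. Whether the reads there could be placed uniquely was not tested. The Gm13832 interval covered its start and was single-copy. At 5 of the 11 genes every HA-Tex10 interval was mostly repeated (over 50% of words), and 3 of the 11 lay on chromosome 8.

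Among the 31 marked genes of the lists, the widest H3K4me3 interval was mostly repeated at 4: 2900097C17Rik, Platr2 and Platr30, where every word was, and Platr10 with 51.7%. Over all 57 genes, 14 (24.6%) had only mostly repeated HA-Tex10 intervals. The widest H3K4me3 interval was mostly repeated at 60 of the 401 marked genes (15%). On chromosome 13, 6 genes had HA-Tex10 and 4 of them only repeated intervals: Gm26639, Gm40983, Gm40988 and Gm48228. Gm48228 lay 3784 bp from a start of Zfp808, a zinc finger gene, and at chromosome 4 the repeated intervals of Gm26573 and Gm26880 overlapped the genes Rex2 and Zfp981. Without mostly repeated intervals, 43 lincRNA genes had HA-Tex10 (0.904%) and 342 had H3K4me3 (7.19%), and 36 of the marked genes had HA-Tex10 (10.5%). One further gene, Gm26912, had HA-Tex10 only through an interval of 6 bp.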

How the data were processed

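The authors deposited 3 interval lists for 6 samples (2 HA-Tex10, 2 H3K4me3, 2 input), 1 list per antibody and a further HA-Tex10 list. Per the file values, the deposited columns used hold interval start and end positions in bp, with no score. Per the submitters' processing notes, Bowtie2 2.3.4.3, SAMtools 1.9, MACS2 2.1.2 and HOMER were used on mm10 (GRCm38). Their roles, the threshold, the use of input and how replicates were combined are not given in the sources used here. All 2990 intervals of the further list are the HA-Tex10 intervals that overlap H3K4me3 by at least 1 bp, so it served only as an alternative.

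Intervals were compared with transcript starts of GENCODE M21. None ended past a chromosome end (0 in each list). Shares have Wilson 95% intervals. Since the lists carry no values per sample, no test between samples was made and the depth is unknown. Intervals were called mostly repeated when over 50% of their 32-base words occurred more than once in the genome, on either strand, with intervals under 100 bp widened to 100 bp and with H3K4me3 intervals above 300 bp read in their central 300 bp. The interval counting was checked on simulated data. Python 3.11.15, numpy 2.4.6, pandas 2.3.3, scipy 1.17.1 and numba 0.67.0 were used.

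The members and lists were chosen with earlier results of these data known. The genes named were the members of the 5 lists, the 10 with the widest HA-Tex10 and the 10 with the widest H3K4me3 interval, and the 5 widest of those with HA-Tex10 alone. Others were named after their values were seen. Alternatives varied the window, the starts, the interval width, the distance rule, the transcripts, chromosome 8 and repeated intervals.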

Additional observations from a re-analysis of the deposited data

How the results depend on the processing

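Each of the 5 main values was recomputed under up to 15 alternative settings, of which the one without the 3 genes at the ribosomal RNA locus was chosen after seeing the data. Of 73 recomputed values, 54 stayed within the 95% interval of the main value and 19 did not. The share of lincRNA genes with H3K4me3 (8.43%) was 10.7% with a window of 2.5 kb, 5.34% for intervals that cover a start, 4.79% with intervals wider than the median of their list, 7.61% for genes over 10 kb from coding starts, 7.43% without genes near a start of another gene type, and 7.19% without mostly repeated intervals. The share with HA-Tex10 (1.2%) was 0.925% with a window of 500 bp, and 1.85%, 0.378% and 0.589% under the first 3 of these settings. It was 0.883% with the further list, which holds only intervals that overlap H3K4me3, and 0.904% without mostly repeated intervals. The share with HA-Tex10 at marked genes (11.5%) moved out of its interval under 1 setting, to 5.12% for intervals that cover a start, and was 9.65 to 11.7% under the others. At unmarked genes (0.253%) it was 0.683% with 2.5 kb, 0.111% for covered starts, 0.133% with wide intervals and 0.0% (0 of 4355) with the further list, whose intervals all overlap H3K4me3 by construction. The median H3K4me3 width (839 bp) was 1159 bp for covered starts and 1452 bp with wide intervals. These settings change the intervals counted, the length searched or the genes included, and any further cause was not tested. No paired analysis was possible because the lists hold no value per replicate, and for the same reason no replicate could be left out. The lists hold no height or depth, so an absent interval shows only that none was called.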
